A study of Rattus norvegicus with 24 samples.

Results

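AH609 was compared with the solvent DMSO in rat cortical cells under glutamate. The comparison rests on 6 of the 24 libraries of the series, chosen by their titles: 3 from cultures given AH609 and 3 from cultures given DMSO. All 6 came from cells that had been kept for 8 days before their medium was replaced with one holding 250 μM glutamate, and wells were scanned for 4 h afterwards. One AH609 title spells the medium "glutmate" and was read as glutamate. The labels give no dose or time for AH609, do not say what it is, and name neither the rat strain nor the age of the animals. When RNA was taken is not stated either, so that exposure cannot be given a length here. Other libraries are used beside these 6 only where named: the same 2 treatments in fresh growth medium, and cultures given IS141 or AH236, a pair of further agents known by code names.

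Glutamate is the main excitatory transmitter of the cortex and acts on NMDA, AMPA, kainate and metabotropic receptors. Sustained exposure loads neurons with calcium, which switches on activity-dependent transcription and can injure or kill the cells, a process called excitotoxicity. Agents are commonly set against a solvent under glutamate to see whether they alter that response. Genes in the table carry Ensembl rat identifiers, and 0 of them could be matched to a symbol. The genes are therefore described by identifier, level, change and response to glutamate, with no statement on what they encode, and the cortical label was not checked against marker genes.

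The 6 libraries were close to one another. Their totals ran from 22509400 to 35496447 counts. The deepest and the shallowest both belonged to AH609. Between 19597 and 20663 genes had a count with AH609 and between 19969 and 20544 with DMSO. The 100 most abundant genes took 25.3% to 26.6% of the counts of tested genes with AH609 and 25.7% to 26.6% with DMSO. Levels are given in CPM, each gene's count as a share of its library after TMM scaling, which corrects for differences in RNA composition. Over the 12227 genes whose mean reached 1 log2 CPM, the first principal component held 38.1% of the variance and separated the treatments. AH609 libraries scored 6.8, 11.5 and 8.8 on it, and DMSO libraries -11.3, -7.9 and -7.8. Pearson's r across these genes, which are not independent replicates, was 0.9956 to 0.9970 between AH609 libraries, 0.9953 to 0.9961 between DMSO libraries and 0.9931 to 0.9951 between the treatments. The median SD of a gene was 0.0720 log2 units among AH609 libraries and 0.0917 among DMSO libraries. A library outside the comparison, DMSO replicate 1 in medium, was left out in an alternative fit. The DMSO medium group it belongs to had a median SD of 0.124, the widest of the 8 groups. Since all 24 libraries shared 1 fit, that library entered the estimate of spread used for AH609 under glutamate. Nothing in the labels says that replicates were separate cultures, so p-values reflect the spread between these libraries, part of which may be technical. In such bulk libraries, fewer cells of a type and less RNA per cell cannot be told apart.

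Most of the differences called between AH609 and DMSO under glutamate were small. Of 15908 genes tested, 235 were higher and 182 lower with AH609 than with DMSO at an adjusted p under 0.05 (edgeR quasi-likelihood test), which is 1.48% and 1.14% of the genes, or 2.62% in all. At an unadjusted p under 0.05 there were 2461 genes, 1247 higher and 1214 lower. The median change was 1.24-fold among the higher genes and 1.27-fold among the lower genes. Changes under 1.5-fold made up 84.7% of the calls, with 204 of the higher and 149 of the lower genes. A change of at least 2-fold was found for 8 higher and 12 lower genes. None of these 8 rises, but 6 of the 12 falls, belonged to genes whose mean reached 1 log2 CPM. With DESeq2 there were 0 rises and 6 falls of that size among 549 calls. All 3 AH609 libraries lay above all 3 DMSO libraries for 233 of the 235 higher genes, and below them for 181 of the 182 lower genes. Over all genes tested, such a separation was found upwards for 11.2% and downwards for 10.6%. These shares use the same libraries as the calls and are a description of them.

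**Figure D1:**
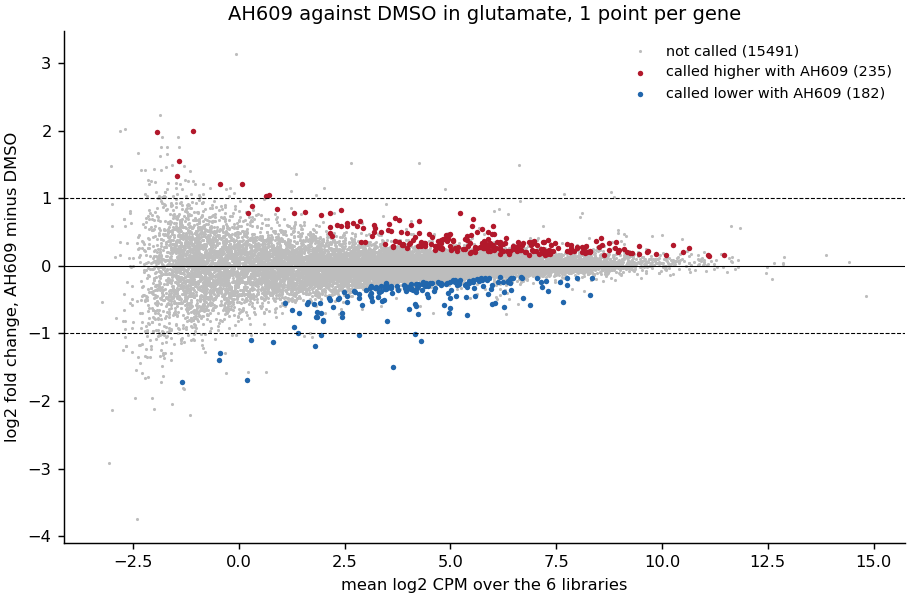
Each point is 1 of 15908 genes, with its mean log2 CPM over the 6 libraries on the x axis and the log2 fold change of AH609 minus DMSO in glutamate on the y axis; dashed lines mark 2-fold. The 235 higher genes (red) reach further towards high levels than the 182 lower genes (blue), and most calls lie between the dashed lines.

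Rises and falls lay at different levels of expression. Among the 3236 genes with a mean of 6 or more log2 CPM, 106 were higher and 29 lower with AH609. Among the 4709 genes with a mean between 1 and 4, 39 were higher and 72 lower. Genes between 4 and 6 were split evenly, with 79 higher and 75 lower of 4282, and under 1 there were 11 higher and 6 lower of 3681. Scaling by library totals in place of TMM shifted the median over all tested genes to -0.03, from 0.00, and turned the overall split to 173 higher and 275 lower. Under that scaling the most abundant class still held more rises than falls (78 and 59), while the class between 4 and 6 held 59 rises and 112 falls. As shares of the counts of the tested genes, the higher genes took 3.83% to 3.91% in the AH609 libraries and 3.31% to 3.37% in the DMSO libraries. The lower genes took 0.569% to 0.612% with AH609 and 0.734% to 0.764% with DMSO. Both sets of ranges are a description of genes called on these libraries.

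The genes to print were those with the largest change among called genes that reached a mean of 1 log2 CPM and had no overlap between the treatments, 2 in each direction. Among such genes the 12 largest rises had log2 fold changes from 0.63 to 0.83 and the 12 largest falls from -1.50 to -0.76, so the falls were the larger changes at measurable levels. Mean levels over the 6 libraries ran from 2.55 to 48.0 CPM for the 12 rises and from 2.53 to 21.2 CPM for the 12 falls.

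ENSRNOG00000029264 had the largest fall. Its level was 8.86, 6.31 and 7.10 CPM in the 3 AH609 libraries and 19.1, 25.3 and 19.0 CPM in the 3 DMSO libraries under glutamate. Every AH609 library was below 9 CPM and every DMSO library above 18 CPM. The log2 fold change was -1.50 ± 0.25 (SE; edgeR adjusted p = 0.00332), a 2.83-fold lower level. In medium the gene stood at 43.0 ± 5.37 CPM with AH609 and 46.5 ± 17.8 CPM with DMSO (SD, n = 3). The wide DMSO spread in medium came from replicate 1, at 26.1 CPM against 54.8 and 58.6 CPM. The AH609 difference in medium was -0.11 ± 0.20 (adjusted p = 0.860), and -0.40 ± 0.11 (adjusted p = 0.0265) without that library. The test of whether the AH609 difference changed between medium and glutamate gave -1.39 ± 0.32 (adjusted p = 0.228), and -1.10 ± 0.17 (adjusted p = 0.000809) without DMSO replicate 1 in medium. Under glutamate IS141 cultures held 6.40 ± 0.280 CPM and AH236 cultures 5.43 ± 0.771 CPM (SD, n = 3). The difference of AH609 from IS141 was 0.22 (95% interval -0.37 to 0.81) and from AH236 0.45 (-0.16 to 1.06), so neither passed the test, and each interval allows a difference of more than 1.5-fold. Against the same 3 DMSO libraries, the log2 fold change was -1.72 for IS141 and -1.95 for AH236. Glutamate lowered the gene by -1.14 in DMSO, -2.53 in AH609, -2.90 in IS141 and -2.90 in AH236 cultures on the log2 scale. The DMSO value was -1.43 without replicate 1 in medium.

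ENSRNOG00000014152 fell next. Its level was 2.65, 2.02 and 2.14 CPM with AH609 and 5.69, 5.49 and 4.39 CPM with DMSO under glutamate, without overlap. The log2 fold change was -1.18 ± 0.14 (SE; edgeR adjusted p = 6e-05). In medium AH609 cultures stood at 6.71 ± 0.247 CPM and DMSO cultures at 8.20 ± 1.13 CPM (SD, n = 3), a log2 difference of -0.29 ± 0.12 (adjusted p = 0.225). Without DMSO replicate 1 in medium that difference was -0.39 ± 0.12 (SE; edgeR adjusted p = 0.05). This gene was also called against another agent, in a test that reuses the AH609 libraries by which it was chosen. It was lower with AH609 than with AH236 under glutamate, by -0.73 (95% interval -1.05 to -0.42; adjusted p = 0.0176), with AH236 libraries at 3.80 ± 0.412 CPM (SD, n = 3). Against IS141, at 3.02 ± 0.186 CPM (SD, n = 3), the difference was -0.41 (-0.73 to -0.09), which did not pass after adjustment (adjusted p = 0.410). Against the shared DMSO libraries the log2 fold change was -0.78 for IS141 and -0.45 for AH236. The log2 change with glutamate was -0.67 in DMSO, -1.56 in AH609, -1.21 in IS141 and -0.52 in AH236 cultures. The change of the AH609 difference between media was -0.89 ± 0.19 (adjusted p = 0.0886), and -0.79 ± 0.19 (adjusted p = 0.0244) without DMSO replicate 1 in medium.

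ENSRNOG00000016890 had the largest rise. Its level was 7.29, 7.57 and 6.12 CPM with AH609 and 3.75, 4.55 and 3.50 CPM with DMSO under glutamate, without overlap, and the log2 fold change was 0.83 ± 0.15 (SE; edgeR adjusted p = 0.00352). AH609 cultures also held more of it in medium, at 13.3 ± 1.72 CPM against 8.43 ± 1.57 CPM (SD, n = 3; log2 fold change 0.66 ± 0.13, adjusted p = 0.00578). Glutamate lowered this gene in every treatment, with log2 changes of -1.10 in DMSO, -0.93 in AH609, -0.62 in IS141 and -0.71 in AH236 cultures. The rise with AH609 was therefore opposite in sign to the glutamate effect and was called in both media. The difference between the media was 0.17 (95% interval -0.25 to 0.59; adjusted p = 0.930). Under glutamate IS141 libraries stood at 6.30 ± 0.345 CPM and AH236 libraries at 6.99 ± 0.695 CPM (SD, n = 3), with log2 fold changes of 0.69 and 0.84 against the shared DMSO libraries. The AH609 level differed by 0.14 (-0.16 to 0.44) from IS141 and by -0.01 (-0.31 to 0.29) from AH236, and neither passed the test.

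ENSRNOG00000018915 showed the other pattern. Its level was 3.60, 3.37 and 4.51 CPM with AH609 and 2.32, 1.68 and 2.61 CPM with DMSO under glutamate. The log2 fold change was 0.80 ± 0.17 (SE; edgeR adjusted p = 0.00858). In medium the level was 0.857 ± 0.119 CPM with AH609 and 0.868 ± 0.106 CPM with DMSO (SD, n = 3). Glutamate raised this gene in every treatment, with log2 changes of 1.35 in DMSO, 2.16 in AH609, 2.07 in IS141 and 1.58 in AH236 cultures. The AH609 difference had the same sign as that rise. The difference between media was 0.81 ± 0.29 and did not pass (adjusted p = 0.494). IS141 libraries held 3.95 ± 0.414 CPM and AH236 libraries 3.27 ± 0.391 CPM under glutamate (SD, n = 3). AH609 differed from them by -0.03 (95% interval -0.36 to 0.29) and 0.24 (-0.10 to 0.57), which did not pass the test. The gene's call was lost without AH609 replicate 3 under glutamate (0.65, adjusted p = 0.0897) and without DMSO replicate 2 under glutamate (0.64, adjusted p = 0.0571).

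**Figure D2:**
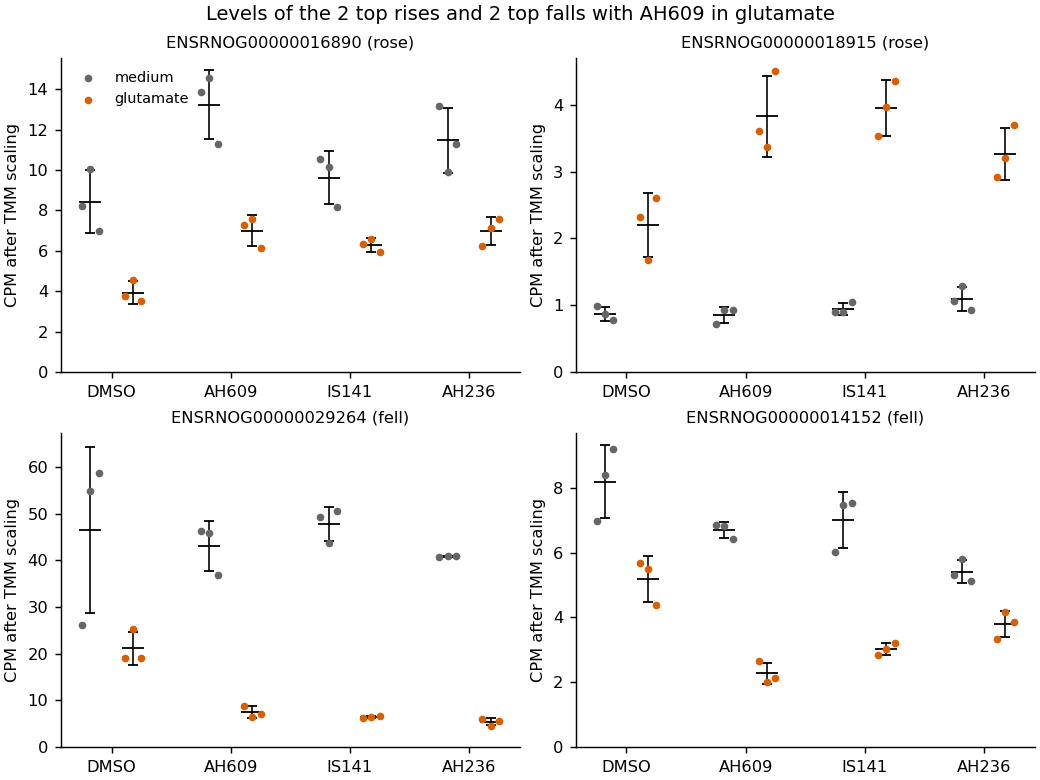
CPM after TMM scaling in each of the 24 libraries (points; black bars are mean ± SD of 3 libraries) for the 2 genes with the largest rise and the 2 with the largest fall with AH609 under glutamate. In glutamate (orange) the AH609 points do not overlap the DMSO points in any panel, while for ENSRNOG00000018915 and ENSRNOG00000029264 the AH609 and DMSO means in medium (grey) are close.

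The next question was how the AH609 difference related to the direction in which glutamate moves a gene. That direction was taken from IS141 and AH236 cultures, glutamate against medium, whose libraries are not among the 6 compared here but share the fit. Each of these glutamate effects also holds any difference of IS141 or AH236 from DMSO under glutamate. A change that AH609 shared with these agents could thus by itself set the direction given to a gene. The shares and medians by direction are therefore a description and no independent test of the relation. Of the 182 genes that were lower with AH609, 134 (73.6%) were lowered by glutamate in both of those cultures and 11 were raised in both. Over all genes tested, 26% were lowered in both and 24.6% raised in both. Of the 235 genes that were higher with AH609, 135 (57.4%) were raised by glutamate in both cultures and 20 were lowered in both. The median glutamate effect of the lower genes was -0.75 in IS141 and -0.59 in AH236 cultures, and that of the higher genes 0.33 and 0.31. Falls with AH609 thus lay mostly among genes that glutamate lowered in those cultures. Rises lay more often among genes that it raised there, with exceptions in both directions. Among the 12 largest falls 10 were lowered by glutamate in both cultures and 0 raised, while the 12 largest rises were mixed, with 4 raised and 3 lowered. Without DMSO replicate 1 in medium, 427 genes were lower, of which 66.3% were lowered by glutamate in both cultures, and 568 were higher, of which 64.4% were raised.

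The relation was graded, under the same limit on what the IS141 and AH236 cultures can show. All tested genes were sorted into 7 classes by their mean log2 glutamate effect in IS141 and AH236 cultures. The median AH609 minus DMSO log2 fold change under glutamate was -0.18 for the 887 genes with a fall of 1 or more. It was -0.09 for falls of 0.5 to 1 (2128 genes) and -0.02 for smaller falls (4913 genes). For rises it was 0.02 below 0.5 (4976 genes), 0.08 from 0.5 to 1 (1601 genes), 0.13 from 1 to 2 (949 genes) and 0.17 at 2 or more (454 genes). These medians were far smaller than the glutamate effects themselves, whose medians were -1.25 in the first class and 2.83 in the last. Scaling by library totals lowered each class by about the shift of all genes and turned the sign only for rises below 0.5 (-0.01). The first class ran to -0.20 and the last to 0.14 under that scaling.

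The 3 AH609 libraries showed the same order of classes. Relative to the mean of the 3 DMSO libraries, the class with falls of 1 or more had a median of -0.16, -0.18 and -0.16 in the AH609 libraries and 0.07, -0.04 and -0.02 in the DMSO libraries. For rises of 1 to 2 the AH609 libraries were at 0.13, 0.13 and 0.13 and the DMSO libraries at -0.02, 0.02 and 0.00. For rises of 2 or more they were at 0.18, 0.18 and 0.14 against -0.04, 0.07 and -0.03. The treatments did not overlap in these 3 classes. The share of genes called lower with AH609 went from 5.30% in the class with the largest falls to 0% in that with the largest rises, and the share called higher from 0% to 2.86%, with its highest value, 4.32%, for rises of 1 to 2.

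**Figure D3:**
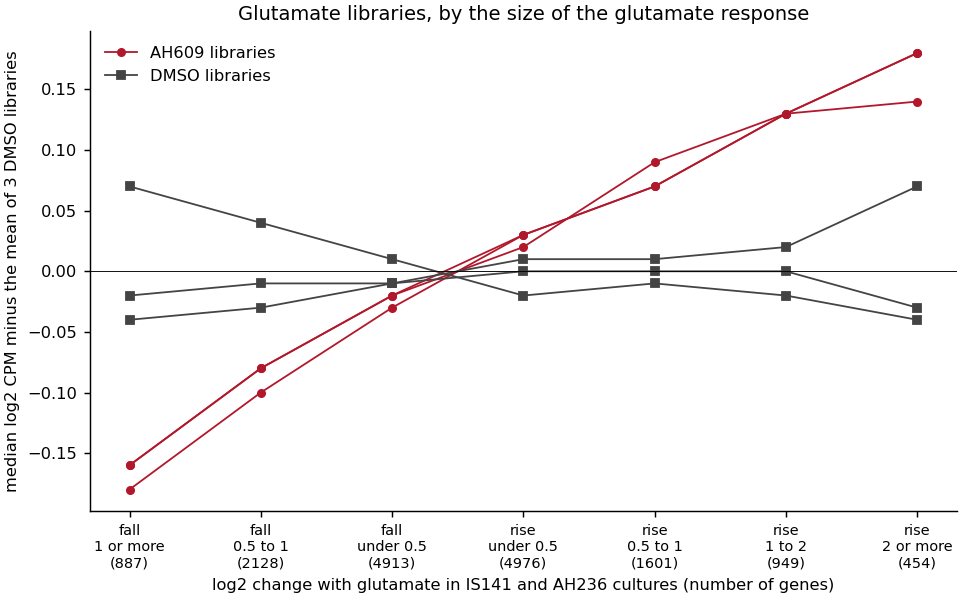
Each line is 1 of the 6 glutamate libraries (AH609 red circles, DMSO grey squares); the x axis gives 7 classes of genes by their log2 change with glutamate in IS141 and AH236 cultures, with gene numbers in brackets, and the y axis the class median of log2 CPM minus the mean of the 3 DMSO libraries. The AH609 lines climb from between -0.18 and -0.16 to between 0.14 and 0.18, and the DMSO lines stay between -0.04 and 0.07.

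In medium the same classes showed a smaller difference between AH609 and DMSO. The medians there were -0.06 for falls of 1 or more, 0.01 for rises of 1 to 2 and -0.03 for rises of 2 or more. Without DMSO replicate 1 in medium they were -0.04, 0.10 and 0.35, so the 2 classes of rising genes depended on that library, and the class with the largest rises was then further from 0 in medium than under glutamate.

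AH609 and DMSO were also compared in the parallel cultures given fresh medium, to see whether the genes called under glutamate differed in cultures without it. The medium libraries enter neither mean of the glutamate comparison, but they share its fit and so its estimate of spread. Of the 235 higher genes, 215 (91.5%) had a positive difference in medium, with a median log2 fold change of 0.20 against 0.31 under glutamate, and 102 were called higher there and 1 lower. Of the 182 lower genes, 163 (89.6%) had a negative difference in medium, with a median of -0.15 against -0.34, and 28 were called lower and 0 higher. Over all genes, 48.2% had a positive and 51.8% a negative difference in medium, and 3.06% were called there, 2.21% higher and 0.849% lower. Most genes that differed under glutamate thus leaned the same way in medium. Without DMSO replicate 1 in medium, 213 of the higher genes were positive and 158 of the lower genes negative. There, 103 of the higher genes were called higher and 54 of the lower genes lower. Over all genes, that fit called 719 higher and 284 lower in medium, against 352 and 135 with all 24 libraries. When the 6 medium libraries were fitted alone, only 3 genes were called in all. The shared fit called 487 genes in medium, 1003 without DMSO replicate 1, and 223, 250 and 244 without AH609 replicate 1, 2 or 3 in medium. Scaling by library totals left 201 of the higher genes positive and 172 of the lower genes negative. Over all genes, 36.5% were positive and 63.5% negative in medium under that scaling. The smaller medians in medium are those of genes chosen for their difference under glutamate and are no test of a change.

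**Figure D4:**
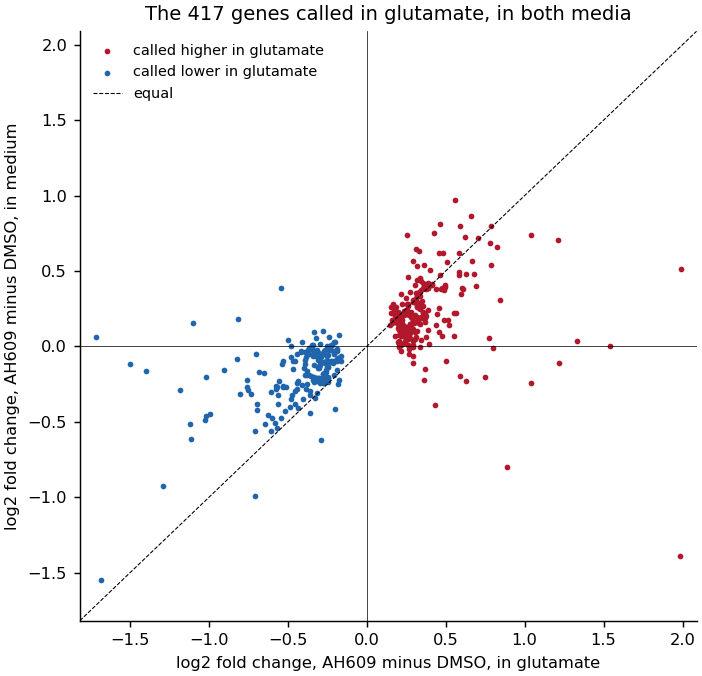
Each of the 417 called genes is a point, with its AH609 minus DMSO log2 fold change in glutamate on the x axis and in medium on the y axis; the dashed line marks equal values. Most red points (higher in glutamate, 235) lie above 0 in medium and most blue points (lower in glutamate, 182) below 0, generally nearer to 0 than in glutamate.

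The direct test asked whether the AH609 difference under glutamate departed from that in medium. It called 4 genes of 15908 (0.0251%), 2 in each direction (0.0126% each), and 1151 had an unadjusted p under 0.05. The numbers that follow describe these 4 genes, which were not among the 4 printed above. A gene at 25.5 CPM in DMSO and 12.6 CPM in AH609 cultures under glutamate stood at 67.0 and 58.2 CPM in medium, a change of -0.81 ± 0.13 (SE; edgeR adjusted p = 0.0154). Another was higher with AH609 in both media, but by less under glutamate (0.25) than in medium (0.74), a change of -0.49 ± 0.08 (adjusted p = 0.0110). The 2 others were higher with AH609 under glutamate, by 0.36 and 0.43, and had values of -0.22 and -0.39 in medium, changes of 0.59 ± 0.11 (adjusted p = 0.0398) and 0.82 ± 0.12 (adjusted p = 0.0082). Without DMSO replicate 1 in medium, 214 genes were called, 35 with a positive and 179 with a negative change. Of these 179, 172 had a positive AH609 difference in medium and 137 were called higher there, while 34 were called lower under glutamate. Over all 15908 genes, 49.8% were positive in medium in that fit and 719 were called higher. The difference in medium is subtracted in the tested change, which favours positive values in medium among genes with a negative change. The counts for the 179 genes are therefore a description. DESeq2 called 28 genes, and a fit of the AH609 and DMSO groups in both media called 0. The count was 0 without AH609 replicate 3 under glutamate and 1 without AH609 replicate 3 in medium. It was 9 without AH609 replicate 2 under glutamate, 10 without AH609 replicate 2 in medium, and 7 without DMSO replicate 3 under glutamate or DMSO replicate 2 in medium.

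AH609 was then set directly against the other agents under glutamate, without the DMSO libraries in the contrast. The labels give no dose for any of them, so doses may not match. Against IS141, edgeR called 0 of 15908 genes (0%), with 1595 at an unadjusted p under 0.05 and a lowest adjusted p of 0.160. DESeq2 called 15, a fit of the 6 compared libraries 37, and the shared fit without DMSO replicate 1 in medium 10. This count does not show that the 2 agents act alike. For the 235 genes that were higher with AH609 than with DMSO, the AH609 minus IS141 difference had a median of 0.02, quartiles of -0.07 and 0.08, and a median 95% half-width of 0.14. For the 182 lower genes the median was -0.01, with quartiles of -0.09 and 0.08 and a half-width of 0.17. The middle 50% of these differences thus lay within 0.1 log2 units of 0, and single genes reached 0.90 among the higher and -1.66 among the lower genes. These values share the AH609 libraries with the comparison that chose the genes.

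Against AH236, 42 genes were higher and 76 lower with AH609 (0.264% and 0.478% of the genes, or 0.742% in all). Of the 235 genes that were higher with AH609 than with DMSO, 7 were higher and 4 lower than with AH236. Of the 182 lower genes 1 was higher and 10 were lower. The AH609 minus AH236 difference had a median of -0.01 for the 235 higher genes, with quartiles of -0.09 and 0.09. For the 182 lower genes the median was -0.05, with quartiles of -0.14 and 0.03. These counts and medians share the AH609 libraries with the comparison that chose the genes. The genes called against AH236 differed by a median of 1.26-fold. Of them, 3 differed by at least 2-fold, all higher with AH609 and with a mean under 1 log2 CPM. No gene was called in the same direction against both IS141 and AH236, as none was called against IS141. The count against AH236 rose to 762 when the 6 compared libraries were fitted alone. It fell to between 23 and 44 without AH609 replicate 2 or 3 or without any 1 AH236 library.

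The calls against DMSO under glutamate depended on single libraries. The count was 232, 163 and 189 without AH609 replicate 1, 2 or 3, and 167, 261 and 274 without DMSO replicate 1, 2 or 3. With 1 of the 6 libraries left out, between 154 and 235 of the 417 genes were called again in the same direction, and 97 genes, 62 higher and 35 lower, were called whichever library was left out. Of these, 94 (61 higher and 33 lower) were also called with RLE factors, library totals, no filter, DESeq2, the 6 libraries alone, the replicate block and without DMSO replicate 1 in medium. Without DMSO replicate 1 in medium, a library in neither group, 995 genes were called, and these held all 417.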

How the data were processed

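RNA of 24 libraries was sequenced. Per the labels' protocols, RNA came from an RNeasy Mini Kit and libraries from a directional NEBNext Ultra II kit. Whole-number counts of 32754 Ensembl rat genes, not normalized, were deposited by the authors. The submitters' processing notes name bcl2fastq, cutadapt 2.3, FastQC 0.11.8, STAR 2.7.8a, RSEM 1.3.3 and build Rnor_6.0. The annotation release is not given in the sources used here, nor is the strand setting. Because RSEM estimates counts, reads of near-identical or overlapping genes may be split between them.

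Libraries were grouped by title. Genes were kept by filterByExpr over 8 groups (15908 of 25683 with a count), scaled by TMM and tested with edgeR 4.0.16 in R 4.3.3 (robust quasi-likelihood fit, 1 mean per group, all 24 libraries), with Benjamini-Hochberg adjustment over all genes and a threshold of 0.05. The SE is the log2 fold change divided by the square root of F. Principal components used log2 CPM with a prior count of 2. The fit was tested on simulated data. Alternatives were DESeq2 1.42.0, RLE factors, library totals, no filter, compared groups alone, omission of DMSO replicate 1 in medium, a replicate block and omission of each library. A fit of the 12 glutamate libraries and a block within the 6 compared libraries were added after seeing the data.

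The members, lists and tests were chosen with earlier results of these data known. Genes to name were the largest rises and falls among called genes that reached a mean of 1 log2 CPM and had no overlap. The rule also asked for symbols, and 46 gene lists, marker lists and promoter motifs were planned. None was applied, because 0 identifiers matched the RefSeq names at hand, so 2 identifiers are printed in each direction.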

Additional observations from a re-analysis of the deposited data

Results flagged for a closer look

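The difference between AH609 and DMSO was tested for a change between media, and 4 genes were called by that test (edgeR quasi-likelihood, adjusted p under 0.05). Their changes were -0.81, -0.49, 0.59 and 0.82 on the log2 scale. The 4 adjusted p-values without DMSO replicate 1 in medium were 0.00194, 4.55e-05, 0.00488 and 0.000414, and the changes were then -0.75, -0.54, 0.55 and 0.80.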

How the results depend on the processing

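The count of 417 genes (235 higher, 182 lower) stayed within 1.5 times with RLE factors, library totals, no filter, DESeq2, the 6 compared libraries alone and the title number as a replicate block (382), but the higher count was 363 with the compared libraries alone and the lower count 275 with library totals. It was 995 (568 higher, 427 lower) without DMSO replicate 1 in medium and 794 (488 and 306) with the 12 glutamate libraries alone. With 1 compared library left out it ran from 163 to 274, with 101 to 162 higher and 62 to 124 lower. The cause was not tested. Fits without a library have fewer samples.

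Deviations of same-numbered AH609 and DMSO libraries correlated at 0.02, 0.13 and 0.17, and those of differently numbered ones at -0.23 to 0.06. The same-numbered DMSO library was the best match for AH609 replicates 2 and 3, while AH609 replicate 1 correlated best with DMSO replicate 2 (0.06). These values do not settle whether title numbers pair the libraries. With a replicate block in the 6 compared libraries, 861 genes were called (531 higher, 330 lower), against 580 (363 higher, 217 lower) in these libraries without a block. In the shared fit the block gave 382 calls against 417 without it.

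Against IS141 the count of 0 became 37 with the compared groups alone, 10 without DMSO replicate 1 in medium, 15 with DESeq2 and 2 with the glutamate libraries alone, and stayed 0 to 0 with 1 library left out. Against AH236 the count of 118 became 762, 478, 244 and 394 in the same order, and 23 to 84 with 1 library left out. The change between media had 4 calls, 14 with no filter, 0 with the compared groups alone, 28 with DESeq2 and 0 to 214 with 1 library left out, the highest without DMSO replicate 1 in medium. In medium the count of 487 became 3 with the compared groups alone and 223 to 1003 with 1 library left out. Of the 4 printed genes, 3 kept their call in all 15 alternatives, with adjusted p-values of at most 0.0274. For ENSRNOG00000018915 the adjusted p ran from 0.00235 to 0.0897 and DESeq2 gave none. Gene list counts and promoter motifs were not run, since no identifier had a symbol. Of the 3681 genes under 1 log2 CPM, 11 were called higher and 6 lower; the part of depth in this was not tested.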
